A study of Homo sapiens with 12 samples.

Results

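NQO1 and 5 genes of the thioredoxin system were followed across 4 treatment groups of MDA-MB-231 cells, a human breast cancer line with mesenchymal features that lacks the hormone receptors of luminal tumours. The 6 genes, NQO1, TXNRD1, TXN, SRXN1, PRDX1 and PRDX6, were taken by gene name from a table of 57905 genes. Each name occurred on 1 row of the table. The rule used names and no measured value, but earlier results of these data were known when the genes were chosen. RNA was sequenced from cells given SFN at 1 µM, SFN with ZA, ZA at 0.5 µM, or the vehicle of 0.01% DMSO and 0.05% water, each for 48 h. SFN and ZA are common abbreviations of sulforaphane and zoledronic acid, which the labels do not spell out. Each group had 3 libraries. Dishes were plated in triplicate, and whether these were independent cultures is not stated. The p-values below therefore reflect only the spread of libraries within groups, estimated jointly over the groups fitted, and that spread may be technical.

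NRF2 is a transcription factor that the adaptor KEAP1 holds at a low level until electrophiles or oxidants modify KEAP1. Sulforaphane is such an electrophile, and released NRF2 binds antioxidant response elements in the promoters of detoxification and redox genes. The thioredoxin cycle passes electrons from NADPH through thioredoxin reductase (TXNRD1, a selenoprotein) to thioredoxin (TXN). Thioredoxin reduces some peroxiredoxins, such as PRDX1, as well as ribonucleotide reductase and other proteins. PRDX1 and PRDX6 are peroxiredoxins that remove peroxides. SRXN1 (sulfiredoxin) repairs some peroxiredoxins, such as PRDX1, that have been over-oxidised, and NQO1 reduces quinones in a single step with a pair of electrons.

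The data gave a modest and repeated difference with SFN for NQO1, and no other member was called in any fit given here. TXNRD1, PRDX1 and PRDX6 had groups that did not overlap in CPM in some comparisons, as given below. With SFN, NQO1 was higher by 0.23 ± 0.09 on the log2 scale (SE), the mean of the SFN effect without and with ZA, with the same sign under each of the alternatives tried. That difference passed the test across all genes only after correction for GC content and removal of 2 libraries that stood apart. A large value of TXN in SFN-treated cells belonged to 1 library, and SRXN1 was hardly counted at all.

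The promoters are shown because the antioxidant response element is the site through which NRF2 acts. RefSeq starts were available for 4 of the 6 genes, in 5 windows, and PRDX1 and PRDX6 had no entry. The 250 bases before the start of NQO1 and before both starts of TXNRD1 read as follows, 5′ to 3′ on the strand of the gene (RefSeq, GRCh38.p14), with complete matches to the core of the element, TGACNNNGC on either strand, in capitals.
NQO1, chr16:69726561-69726810, minus strand: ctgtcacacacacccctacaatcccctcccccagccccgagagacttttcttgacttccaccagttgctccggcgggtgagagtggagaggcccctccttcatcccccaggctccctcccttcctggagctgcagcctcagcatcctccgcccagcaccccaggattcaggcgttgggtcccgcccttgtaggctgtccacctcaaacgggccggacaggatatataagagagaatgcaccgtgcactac
TXNRD1 first start, chr12:104215529-104215778, plus strand: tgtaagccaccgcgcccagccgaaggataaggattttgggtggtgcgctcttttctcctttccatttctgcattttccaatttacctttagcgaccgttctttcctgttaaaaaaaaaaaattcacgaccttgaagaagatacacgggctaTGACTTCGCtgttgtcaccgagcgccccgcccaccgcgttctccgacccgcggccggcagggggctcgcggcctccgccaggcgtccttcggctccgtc
TXNRD1 second start, chr12:104286782-104287031, plus strand: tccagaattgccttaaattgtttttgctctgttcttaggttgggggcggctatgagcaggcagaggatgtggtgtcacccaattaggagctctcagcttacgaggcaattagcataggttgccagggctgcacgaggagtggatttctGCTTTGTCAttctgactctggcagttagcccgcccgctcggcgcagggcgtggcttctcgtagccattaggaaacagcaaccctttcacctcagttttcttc

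The core was searched from 250 bases before to 50 bases after each start, a window in which 13.3% of 35116 RefSeq promoters hold it. Of the 4 genes, TXNRD1 held it, as TGACTTCGC 99 bases before the first start and, on the opposite strand, as TGACAAAGC 102 bases before the second start. A further opposite-strand match at the first start, TGACGGAGC, begins 8 bases before it and runs across it, so it is not in capitals above. The looser pattern TGANNNNGC, which includes every match of the core and lies in 41.8% of promoters, was also found in the window of NQO1, as TGAGGCTGC on the opposite strand 119 bases before the start. A match describes letters and not binding, and the windows of TXN and SRXN1 held neither pattern. Bases further upstream were not searched, so a gene without a match in this window may hold the element elsewhere.

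The genes lie on 5 chromosomes of GRCh37, the build of the deposited counts. NQO1 (ENSG00000181019) lies on chromosome 16 at 69740899 to 69760854, TXNRD1 (ENSG00000198431) on chromosome 12 at 104609557 to 104744061, and TXN (ENSG00000136810) on chromosome 9 at 113006091 to 113018920. SRXN1 (ENSG00000271303) lies on chromosome 20 at 627259 to 634014, PRDX1 (ENSG00000117450) on chromosome 1 at 45976708 to 45988719, and PRDX6 (ENSG00000117592) on the same chromosome at 173446405 to 173457946. All 6 are annotated as protein coding, and the counts cover whole genes rather than single exons.

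The deposited counts summed to between 15.3 and 25.4 M (mega) per library, and all 6 genes were among the 15142 that passed the filter on low counts. Levels are given as CPM, counts scaled to library totals that were adjusted by TMM. Vimentin (VIM, 931 to 2198 CPM), CD44 (760 to 959 CPM) and AXL (1062 to 1352 CPM) were high in every library, while SPARC, on the same marker list, had 0.507 to 1.30 CPM. Of the 7 luminal markers, ESR1, PGR and FOXA1 were at or near 0 (up to 0.124 CPM), KRT8 reached 310 to 904 CPM, and the list summed to 371 to 666 CPM with SFN, 711 to 797 CPM with SFN and ZA, 693 to 913 CPM with ZA and 443 to 948 CPM with vehicle. The summed blood markers stayed at or below 0.436 CPM in every library, and those of fibroblasts and endothelium at or below 17.6 CPM, nearly all of it COL1A1. The part of these marker differences in the results was not tested.

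SFN 2 and vehicle 2 (the second library of the SFN and vehicle groups) stood apart from the rest. On the leading principal component (69.2% of the variance), SFN 2 scored 181 and vehicle 2 scored 71.9, against -49.8 to -5.35 in the other 10 libraries. Across 14747 genes, the deviation of each gene in a library from its median over the 12 libraries was ranked against the GC content of its transcripts. Spearman's rho was -0.799 in SFN 2 and -0.595 in vehicle 2, so transcripts rich in A and T were over-represented there. All 3 SFN libraries had a negative rho, as did ZA 1 and vehicle 3. All 3 SFN+ZA libraries had a positive rho, from 0.223 to 0.633. GC content is thus partly tied to the group given SFN alone, and not to all libraries with SFN. Results are therefore given with all 12 libraries, and with the 10 others after an offset that removes the GC trend of each library.

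Per unit length, TXN had the highest deposited value of the 6 genes and SRXN1 by far the lowest. Most exon bases of SRXN1 are shared with another entry (below), so its low value says little about its transcript level. The median FPKM (fragments scaled to gene length and library total, as the authors deposited them) over the 12 libraries was 328 for TXN, 215 for PRDX1, 165 for TXNRD1, 105 for PRDX6, 85.4 for NQO1 and 0.262 for SRXN1. Within a library TXN exceeded PRDX1 by 1.27 to 5.25 times, TXNRD1 exceeded PRDX6 by 1.27 to 1.85 times, and NQO1 had 0.610 to 0.944 of the FPKM of PRDX6, so these neighbours kept their order in all 12 libraries. TXNRD1 had 0.693 to 1.06 of the FPKM of PRDX1, so this pair changed places in SFN 2.

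**Figure D1:**
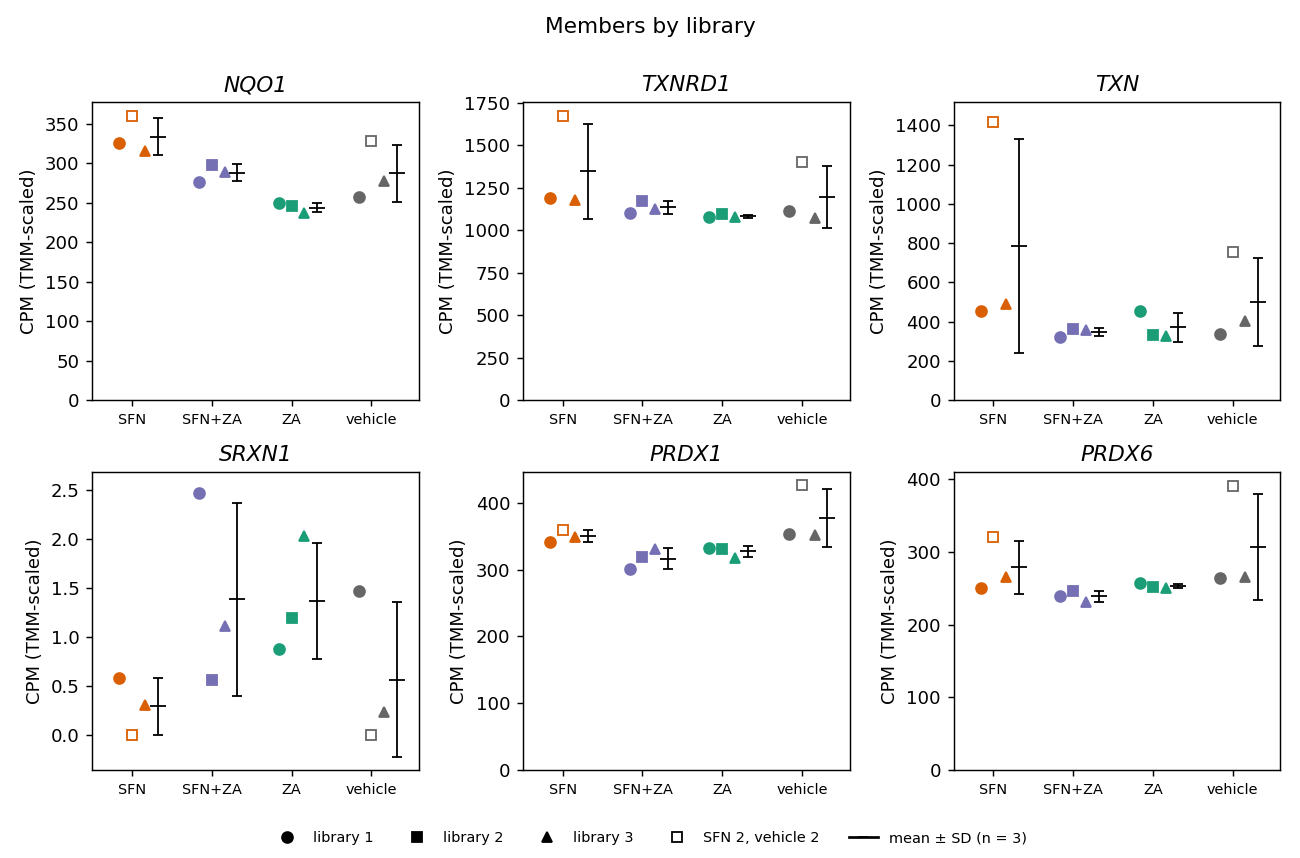
CPM of each of the 6 genes in every library, with the mean and SD of the 3 libraries of a group beside the points; marker shape gives the library number and open squares are SFN 2 and vehicle 2. The 3 SFN libraries of NQO1 sit at 315 to 360 CPM and the 3 ZA libraries at 237 to 249 CPM, TXN stands at 1415 CPM in SFN 2, and SRXN1 stays at or below 2.47 CPM (its lower vehicle bar runs below 0).

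NQO1, the quinone reductase that is a standard readout of NRF2 activity, had 325, 360 and 315 CPM in SFN libraries 1, 2 and 3 and 276, 297 and 289 CPM in SFN+ZA libraries. It had 249, 245 and 237 CPM in ZA libraries and 257, 327 and 277 CPM in vehicle libraries. SFN cells were the highest group and ZA cells the lowest, and 1 vehicle library, vehicle 2, lay among the SFN values. The means were 333 ± 23.6 CPM with SFN, 288 ± 10.7 CPM with SFN and ZA, 244 ± 6.23 CPM with ZA and 287 ± 36.3 CPM with vehicle (SD, n = 3 each). In bulk RNA, a change in the share of cells that express a gene and a change in its RNA per cell cannot be told apart.

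For SFN against vehicle, the log2 difference of NQO1 was 0.22 ± 0.12 (SE), a ratio of 1.16, with an adjusted p of 0.728 in edgeR's quasi-likelihood test with Benjamini-Hochberg adjustment over all genes. For SFN+ZA against ZA, the same quantity was 0.24 ± 0.12 (edgeR, adjusted p = 1), and here every SFN+ZA library was above every ZA library. The 2 estimates of the SFN effect, which come from different libraries, differed by 0.02 ± 0.17 as an interaction. Their average was 0.23 ± 0.09, with an unadjusted p of 0.0246 and an adjusted p of 0.987 in edgeR. These estimates did not pass the adjusted threshold of 0.05, nor did any other gene: called were 0 of 6 members and 0% of all genes in each of the 6 comparisons with 12 libraries.

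The zero calls hold for the edgeR fit with all 12 libraries and no GC offset. At an unadjusted p under 0.05, edgeR gave 753 of 15142 genes for SFN against vehicle, 173 for ZA against vehicle, 744 for SFN+ZA against vehicle, 159 for SFN+ZA against ZA, 399 for the SFN average and 257 for the interaction. DESeq2 called 6 genes for SFN+ZA against vehicle and 0 in the other 5 comparisons, with no member among the 6. DESeq2 gave 982, 359, 1055, 244, 567 and 433 genes at an unadjusted p under 0.05 in the same order of comparisons.

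After the GC offset, with SFN 2 and vehicle 2 left out, the NQO1 libraries of a group drew together. GC-adjusted CPM came from an offset fitted to all 12 libraries. For NQO1 it was 328 and 321 in the 2 SFN libraries kept and 294, 306 and 300.0 in SFN+ZA libraries. It was 252, 256 and 251 in ZA libraries and 269 and 280 in the 2 vehicle libraries kept. The 5 libraries with SFN (294 to 328) thus lay above the 5 without (251 to 280), and NQO1 was the 1 member whose groups did not overlap in this way, against 1.22% of all genes higher and 1.28% lower on this scale. In the 12 libraries on the same scale the groups overlapped, with SFN 2 at 321 and vehicle 2 at 304.

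In that fit NQO1 rose with SFN on average by 0.25 ± 0.04 on the log2 scale (SE), a ratio of 1.19 (edgeR's quasi-likelihood test, Benjamini-Hochberg adjusted p = 0.00859 over 14937 genes). It was the 1 member called, against 0.85% of all genes in either direction and 0.509% called higher, 76 genes. The separate effects were 0.24 ± 0.06 for SFN against vehicle (edgeR, adjusted p = 0.171, where 0.0134% of all genes were called) and 0.25 ± 0.05 for SFN+ZA against ZA (edgeR, adjusted p = 0.0673, where 0.0603% were called), so neither passed on its own. The interaction was 0.0037 ± 0.08. Leaving out each of the 10 libraries in turn, a check chosen after seeing the data, gave 0.23 to 0.26 with adjusted p between 0.00147 and 0.0519 in edgeR. The call held in 9 of these 10 fits and was lost without SFN 3, which left SFN 1 as the lone SFN library (adjusted p = 0.0519 in edgeR).

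**Figure D2:**
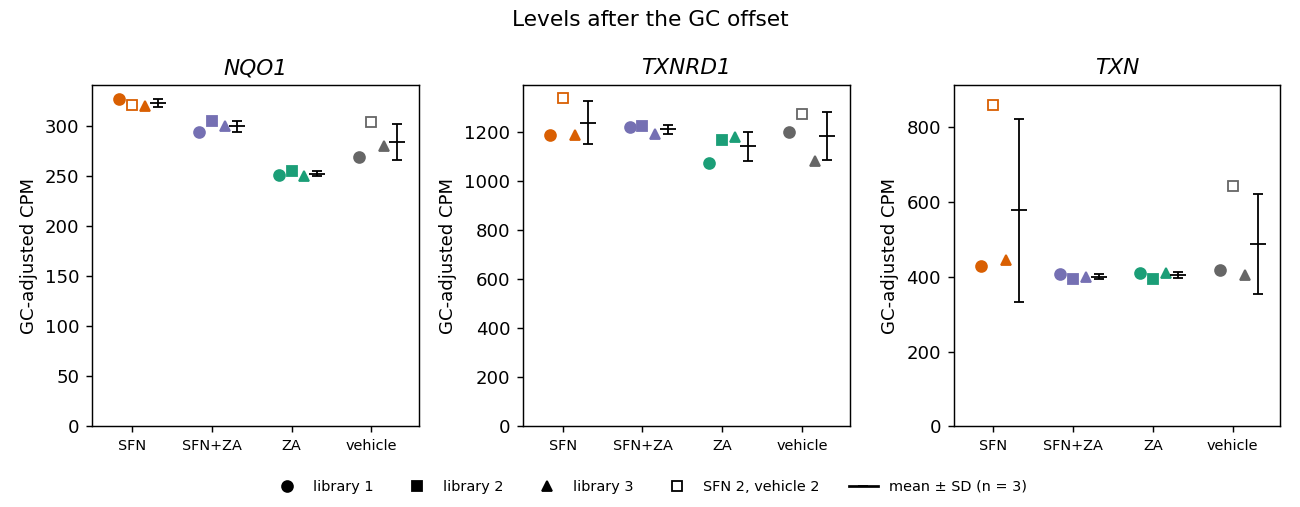
GC-adjusted CPM of NQO1, TXNRD1 and TXN in every library, with the mean and SD of the 3 libraries of a group; open squares are SFN 2 and vehicle 2, which the 10-library fit leaves out. For NQO1 the filled points with SFN lie at 294 to 328 and those without at 251 to 280, while TXN at 395 to 444 in the 10 libraries shows no such gap.

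ZA alone went the other way for NQO1, without passing the test. All 3 ZA libraries of NQO1, at 237 to 249 CPM, were below all 3 vehicle libraries, at 257 to 327 CPM. The log2 difference was -0.24 ± 0.12 (SE, edgeR, adjusted p = 0.98), and -0.11 ± 0.05 with the GC offset in 10 libraries (edgeR, adjusted p = 0.807). PRDX1 and PRDX6 likewise had their CPM groups apart and lower with ZA, 3 of 6 members against 3.05% of all genes lower and 4.48% higher in this way. In GC-adjusted CPM, PRDX6 overlapped, at 255 to 281 with ZA and 268 to 352 with vehicle. PRDX1 did not, at 331 to 341 and 354 to 401. The log2 difference for ZA against vehicle was -0.21 ± 0.12 for PRDX1 and -0.28 ± 0.17 for PRDX6. With the offset in 10 libraries it was -0.09 ± 0.06 and -0.05 ± 0.06 (edgeR, adjusted p = 0.897 and 0.99). With both agents, NQO1 differed from vehicle by 0.0023 ± 0.12 in 12 libraries and by 0.13 ± 0.05 with the offset in 10 (edgeR, adjusted p = 0.196).

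**Figure D3:**
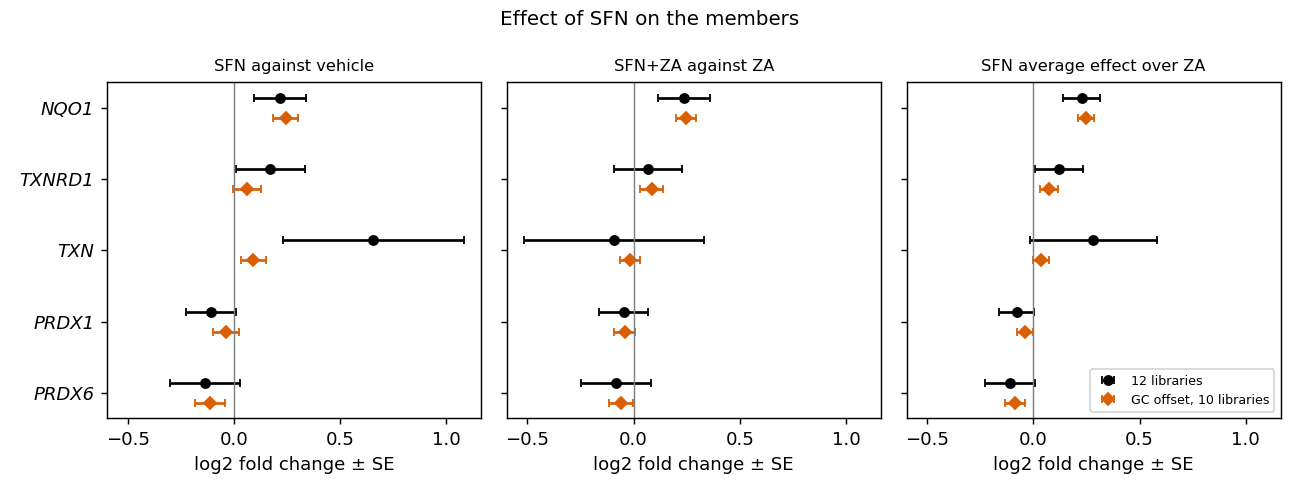
Log2 fold change with its SE for NQO1, TXNRD1, TXN, PRDX1 and PRDX6 in SFN against vehicle, SFN+ZA against ZA, and their average; black circles are the 12-library fit and orange diamonds the 10-library fit with the GC offset. NQO1 lies at 0.22 to 0.25 in all panels and both fits, while TXN in SFN against vehicle is 0.66 in one fit and 0.09 in the other; SRXN1 is left out because of its few counts.

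TXNRD1, the reductase that keeps thioredoxin reduced, had 1188, 1670 and 1180 CPM in SFN libraries and 1103, 1175 and 1125 CPM in SFN+ZA libraries. It had 1075, 1094 and 1076 CPM in ZA libraries and 1111, 1402 and 1070 CPM in vehicle libraries. Apart from SFN 2 and vehicle 2, its 10 values lay between 1070 and 1188 CPM. The 3 SFN+ZA libraries were all just above the 3 ZA libraries, as they were for NQO1, 2 of 6 members against 6.99% of all genes higher in this way. The log2 difference of TXNRD1 was 0.17 ± 0.16 for SFN against vehicle (edgeR, adjusted p = 0.735), 0.07 ± 0.16 for SFN+ZA against ZA (edgeR, adjusted p = 1) and 0.12 ± 0.11 on average (edgeR, adjusted p = 0.987). With the GC offset in 10 libraries the average was 0.07 ± 0.04 (edgeR, adjusted p = 0.481).

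TXN, the small thioredoxin itself, had 455, 1415 and 489 CPM in SFN libraries and 322, 364 and 358 CPM in SFN+ZA libraries. It had 454, 334 and 325 CPM in ZA libraries and 338, 756 and 403 CPM in vehicle libraries. SFN 2 was 3.0 times the mean of the other 2 SFN libraries and vehicle 2 was 2.04 times the mean of the other 2 vehicle libraries, so the group means of 786 ± 545 CPM with SFN and 499 ± 225 CPM with vehicle (SD, n = 3 each) rest on single libraries. The log2 difference for SFN against vehicle was 0.66 ± 0.43 (SE, edgeR, adjusted p = 0.728). Without SFN 2 it was -0.09, and without vehicle 2 it was 1.09. With the GC offset in 10 libraries it was 0.09 ± 0.06 (edgeR, adjusted p = 0.544), and GC-adjusted CPM of TXN in those libraries ran from 395 to 444 in all 4 groups.

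TXN has the transcripts poorest in GC of the 6 genes, at 35.6%, against 45.5% to 53.6% in the other 5. The excess in SFN 2 and vehicle 2 was 1.41 and 1.29 times for TXNRD1, 1.24 and 1.47 times for PRDX6, 1.12 and 1.23 times for NQO1, and 1.04 and 1.21 times for PRDX1. The offset brought the excess of TXN to 1.97 times in SFN 2 and 1.56 times in vehicle 2, so it took out a part of it and left a part. Whether the remainder belongs to the cells or to the libraries was not tested. For SFN+ZA against ZA, whose groups hold neither library, TXN differed by -0.09 ± 0.43 in 12 libraries and by -0.02 ± 0.05 with the offset in 10.

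**Figure D4:**
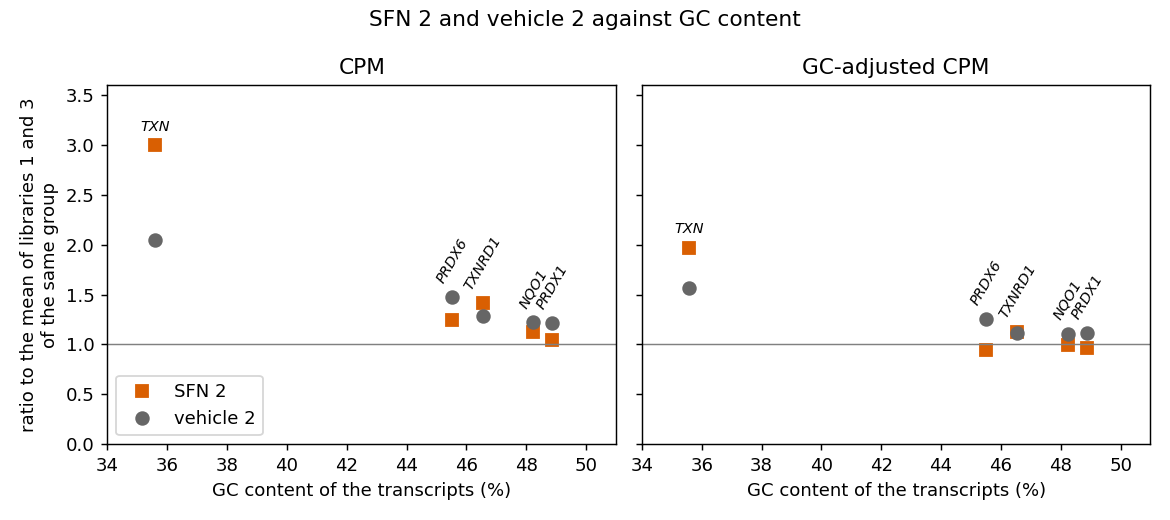
Level in SFN 2 (squares) and vehicle 2 (circles) divided by the mean of the other 2 libraries of the same group, against the GC content of the transcripts in percent, for 5 of the genes; the left panel uses CPM and the right panel GC-adjusted CPM. TXN at 35.6% GC stands at 3.0 and 2.04 on the left and at 1.97 and 1.56 on the right, and the other 4 genes lie between 0.943 and 1.47 in both.

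SRXN1, which repairs some over-oxidised peroxiredoxins, could not be followed in these counts. It had 9, 0 and 5 counts in SFN libraries, 41, 10 and 18 in SFN+ZA libraries, 17, 30 and 32 in ZA libraries and 22, 0 and 4 in vehicle libraries. The libraries at 0 were again SFN 2 and vehicle 2, where a count of 0 allows up to 0.170 and 0.168 CPM (3 counts). In the deposited coordinates SRXN1 shares 6745 bases of its span with another protein-coding entry on the same strand, ENSG00000270299, which had 0 to 5 counts in a library. In GENCODE v29, on GRCh38, 2292 of the 2698 exon bases of SRXN1, 85.0%, also belong to exons of that entry. How the authors' counting treated reads in shared exons is not given in the sources used here, so the counts say little about the level of SRXN1. Its differences were -0.92 ± 1.23 for SFN against vehicle and 0.03 ± 1.00 for SFN+ZA against ZA on the log2 scale with standard errors above every estimate of the other members in these comparisons (edgeR, adjusted p = 0.785 and 1).

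PRDX1, the abundant cytosolic peroxiredoxin, had 341, 360 and 349 CPM in SFN libraries and 301, 318 and 331 CPM in SFN+ZA libraries. It had 333, 331 and 318 CPM in ZA libraries and 353, 427 and 352 CPM in vehicle libraries. Vehicle cells had the highest mean, and the 3 SFN+ZA libraries lay below all 3 vehicle libraries. The log2 difference was -0.11 ± 0.12 for SFN against vehicle (edgeR, adjusted p = 0.756), -0.25 ± 0.12 for SFN+ZA against vehicle (edgeR, adjusted p = 0.861) and -0.08 ± 0.08 for the SFN average (edgeR, adjusted p = 0.987).

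PRDX6, the peroxiredoxin with a single catalytic cysteine that also acts on phospholipids, had 250.5, 320.4 and 266 CPM in SFN libraries and 239, 246 and 231 CPM in SFN+ZA libraries. It had 257, 252 and 251 CPM in ZA libraries and 264, 390.4 and 265 CPM in vehicle libraries. In CPM, the SFN+ZA libraries were below both the ZA and the vehicle libraries, and SFN 2 and vehicle 2 were the 2 highest. In CPM, PRDX1 and PRDX6 were the 2 of 6 members lower without overlap in SFN+ZA against vehicle, as 9.63% of all genes were. PRDX6 was the 1 lower without overlap in SFN+ZA against ZA, as 5.77% were. In GC-adjusted CPM, PRDX6 was at 248 to 271 with SFN+ZA, 255 to 281 with ZA and 268 to 352 with vehicle. On that scale its SFN+ZA libraries overlapped both other groups. Its log2 difference was -0.14 ± 0.17 for SFN against vehicle (edgeR, adjusted p = 0.771), -0.36 ± 0.17 for SFN+ZA against vehicle (edgeR, adjusted p = 0.861) and -0.11 ± 0.12 for the SFN average (edgeR, adjusted p = 0.987). With the GC offset in 10 libraries the averages were -0.04 ± 0.04 for PRDX1 and -0.09 ± 0.05 for PRDX6, with adjusted p of 0.707 and 0.433 in edgeR.

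Read as CPM in all 12 libraries, SFN and vehicle cells overlapped for all 6 genes, where 4.40% of all genes were higher and 3.48% lower without overlap. With SFN 2 and vehicle 2 left out, NQO1, TXNRD1 and TXN were higher and PRDX1 lower without overlap, 3 and 1 of 6 members. With 2 libraries against 2 this is common, since 24.6% of all genes were higher and 23.0% lower in the same way. Set against the vehicle library of the same number, the SFN library was higher in CPM in 3 of 3 pairs for NQO1, TXNRD1 and TXN and lower in 3 of 3 pairs for PRDX1, as 21.6% of all genes were in each direction. For the 6 libraries with SFN against the 6 without, all 6 members overlapped, where 0.145% of all genes were higher and 0.198% lower without overlap.

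Within a library, the level of one member can be set against that of another, which removes the library total though not the GC trend. PRDX1 was chosen as the denominator after the values were seen, for its GC content of 48.9% close to the 48.2% of NQO1, so the ratios are a description with no test. The ratio of NQO1 to PRDX1 in FPKM was 0.446, 0.468 and 0.422 in SFN libraries and 0.430, 0.437 and 0.409 in SFN+ZA libraries. It was 0.350, 0.347 and 0.349 in ZA libraries and 0.340, 0.359 and 0.369 in vehicle libraries. All 6 libraries with SFN, SFN 2 included, were thus above all 6 without, vehicle 2 included, and 0.456% of all genes were higher and 0.0396% lower without overlap when divided by PRDX1 in the same way. The means were 0.435 ± 0.0205 with SFN and 0.352 ± 0.0102 without (SD, n = 6 each). PRDX1 itself was at -0.08 ± 0.08 for the SFN average on the log2 scale, which adds to the gap in this ratio.

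The other ratios were less clean. TXNRD1 to PRDX1 was 0.769 to 1.06 with SFN and 0.693 to 0.770 without, an overlap by SFN 3 and ZA 3 alone. TXN to PRDX1 was 1.43 to 5.25 with SFN and 1.27 to 2.36 without, and PRDX6 to PRDX1 was 0.449 to 0.573 with SFN and 0.481 to 0.588 without, so both overlapped widely. Divided by PRDX6, NQO1 was at 0.818 to 0.944 with SFN and 0.610 to 0.760 without, and TXNRD1 was at 1.57 to 1.85 with SFN and 1.27 to 1.54 without. Those were 2 members without overlap, against 0.436% of all genes higher and 0.0264% lower in this ratio. PRDX6 was also chosen as a denominator after the values were seen, and it was itself at -0.11 ± 0.12 for the SFN average on the log2 scale, which adds to the gap in these ratios.

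**Figure D5:**
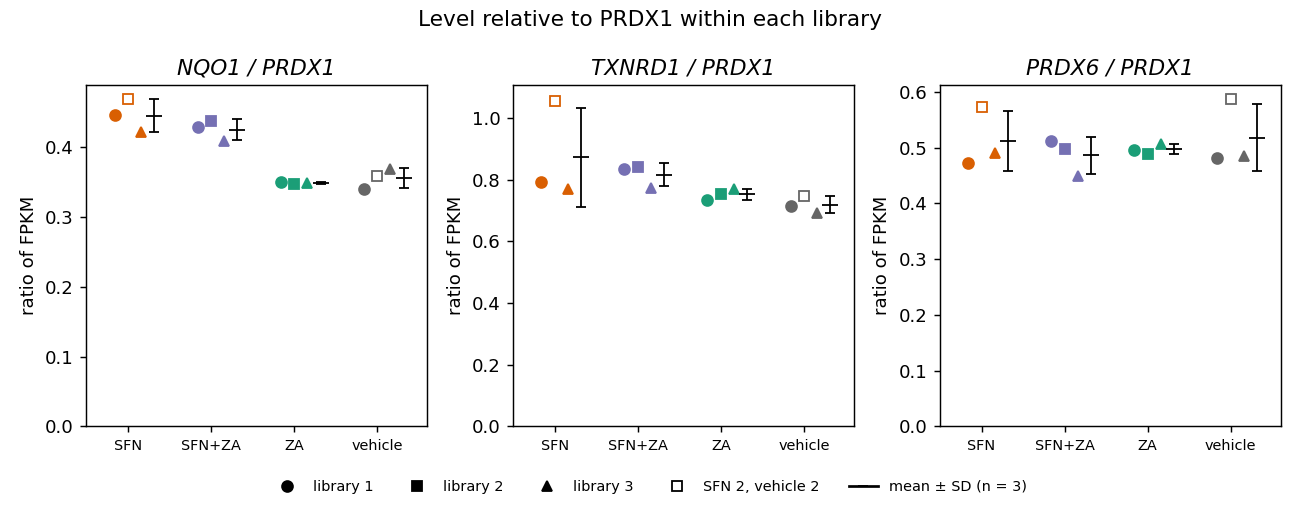
FPKM of NQO1, TXNRD1 and PRDX6 divided by that of PRDX1 in the same library, with the mean and SD of the 3 libraries of a group; open squares are SFN 2 and vehicle 2. For NQO1 the 6 libraries with SFN lie at 0.409 to 0.468 and the 6 without at 0.340 to 0.369, whereas PRDX6 to PRDX1 mixes the groups.

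The authors' deposited table holds 2 further pairs, which set the groups with ZA against SFN alone. In the authors' deposited table, NQO1 was at a log2 fold change of -0.45 for ZA against SFN and -0.21 for SFN+ZA against SFN. TXN was at -1.09 and -1.19 in the authors' deposited table for the same pairs, both of which contain SFN 2. Over all 6 pairs in the authors' deposited table, the lowest adjusted p of a member was 0.458. Over all genes, the authors' deposited table held 44 with an adjusted p under 0.05 for SFN+ZA against vehicle, 11 for SFN+ZA against ZA, 10 for SFN+ZA against SFN and 0 in the other 3 pairs.

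The other genes of the pathway were read from 6 lists, and none of their members was called in the 12-library fit in any comparison. Thioredoxin and peroxiredoxin relatives, such as the mitochondrial forms and the sestrins, numbered 16, all tested, and 5 lay above and 11 below 0 for the SFN average, with a median log2 difference of -0.14, against 0.00077 over all 15142 genes. At the ends of that list were TXNDC17, a thioredoxin-like protein (0.24 ± 0.35), and SESN1, a sestrin (0.17 ± 0.18), and on the low side SESN3, another sestrin (-0.31 ± 0.30), and PRDX5, a peroxiredoxin (-0.45 ± 0.39). PRDX5 ranged from 9.92 to 77.8 CPM with SFN and from 23.1 to 92.9 CPM without, so its spread exceeded its difference.

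The 9 glutaredoxins and methionine sulfoxide reductases, taken with glutathione reductase, had a median of 0.02, with 5 above and 4 below 0. GLRX5, a mitochondrial glutaredoxin (0.17 ± 0.24), and GSR, glutathione reductase (0.16 ± 0.11), were the highest. MSRB1 (-0.24 ± 0.21) and MSRB2 (-0.38 ± 0.14), which reduce oxidised methionine, were the lowest, and MSRB2 had 18.8 to 23.9 CPM with SFN and 22.4 to 41.7 CPM without. The 5 proteins that thioredoxin acts on had a median of 0.16, with the kinase MAP3K5 (0.20 ± 0.19) and the ribonucleotide reductase subunit RRM1 (0.17 ± 0.17) highest, and the DNA repair enzyme APEX1 (-0.11 ± 0.13) lowest. The 5 genes of selenocysteine incorporation, on which TXNRD1 depends, had a median of 0.08, from EEFSEC (-0.17 ± 0.31) and SEPHS2 (-0.12 ± 0.12) to SECISBP2 (0.08 ± 0.10) and PSTK (0.09 ± 0.19). With the GC offset in 10 libraries, the medians of these 4 lists for the SFN average were -0.07 for the thioredoxin and peroxiredoxin relatives (5 above and 10 below 0 of 15 tested), -0.05 for the glutaredoxins and methionine sulfoxide reductases (3 above, 6 below), 0.03 for the proteins that thioredoxin acts on (3 above, 2 below) and -0.03 for the genes of selenocysteine incorporation (2 above, 3 below).

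NRF2 itself and its 7 partners had a median of 0.01 for the SFN average, 4 above and 4 below 0. CUL3, the ubiquitin ligase scaffold that works with KEAP1 (0.23 ± 0.18), and NFE2L2, which encodes NRF2 (0.17 ± 0.18), were the highest, and MAFF, a small MAF protein (-0.11 ± 0.29), and KEAP1 (-0.14 ± 0.25) the lowest. In 12 libraries the highest CUL3 value with SFN was 207 CPM, against 99.1 CPM without, and the highest NFE2L2 value was 363 CPM, against 223 CPM. With the offset in 10 libraries CUL3 was at -0.07 ± 0.06 and NFE2L2 at 0.02 ± 0.08 for the SFN average, while the list as a whole had 7 above and 1 below 0 and a median of 0.07. For SFN against vehicle in that fit it likewise had 7 above and 1 below 0, with a median of 0.17 against 0.01 over all genes, and no gene of the list was called.

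Other NRF2 targets had the highest median of the 6 lists for the SFN average with the GC offset in 10 libraries. Of 18 listed, 17 were tested, and for the SFN average 9 were above and 8 below 0 in 12 libraries, with a median of 0.11. AKR1C1, an aldo-keto reductase (0.60 ± 0.26), and SLC7A11, the cystine importer (0.49 ± 0.12), were the highest there, and TKT, transketolase (-0.12 ± 0.18), and HMOX1, haem oxygenase (-0.22 ± 0.39), the lowest. SLC7A11 had 153 ± 23.4 CPM with SFN and 108 ± 16.0 CPM without (SD, n = 6 each), with ranges of 121 to 191 and 88.2 to 126 CPM that overlapped at their ends. AKR1C1 was scarce, at 1.27 to 3.29 CPM with SFN and 1.07 to 1.80 CPM without.

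With the offset in 10 libraries, 14 of the 17 targets were above 0 and 3 below, with a median of 0.16 against -0.00017 over all 14937 genes. Called higher for the SFN average were 3 of them, against 0.509% of all genes. SLC7A11 was at 0.41 ± 0.04 (edgeR, adjusted p = 0.000377), ABCC3, an efflux transporter, at 0.46 ± 0.05 (edgeR, adjusted p = 0.000906), and FTL, the ferritin light chain, at 0.26 ± 0.05 (edgeR, adjusted p = 0.0346). ABCC3 was also higher in ZA against vehicle, by 0.45 ± 0.08 (edgeR, adjusted p = 0.0285, against 0.141% of all genes called), and in SFN+ZA against vehicle, by 0.85 ± 0.08 (edgeR, adjusted p = 3.21e-05, against 3.21% called). In SFN+ZA against ZA it was higher by 0.40 ± 0.07 (edgeR, adjusted p = 0.0382). SLC7A11 was called in SFN+ZA against ZA at 0.48 ± 0.05 (edgeR, adjusted p = 0.00193) and in SFN+ZA against vehicle at 0.38 ± 0.06 (edgeR, adjusted p = 0.00326). Among the thioredoxin relatives, NXN (nucleoredoxin) fell in SFN+ZA against vehicle, by 0.24 on the log2 scale (edgeR, adjusted p = 0.0333, against 0.79% of all genes lower). HMOX1 was at -0.05 ± 0.12 for the SFN average in the same fit and was not called.

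The genes whose levels followed each member most closely were found by the mean absolute difference of centred log2 CPM over the 12 libraries, among 9340 protein-coding genes. NQO1 was followed most closely by ZC3H12C (0.05), IFRD1 (0.05) and PPP1R15B (0.06), against a median gene at 0.21. TXN was followed by SNRPD1 (0.06), RPL22L1 (0.07) and SNRPE (0.08), against a median of 0.42, and those 3 genes have 39.2% to 41.0% GC. TXNRD1 was followed by DLC1, TPM4 and TSR1 (0.04 to 0.05), PRDX1 by UBAC2, EEF1A1 and USP39 (0.04), and PRDX6 by H3F3A, FBXO21 and MCM3 (0.03 to 0.05). With SFN 2 and vehicle 2 left out, 1 of the 3 genes named for NQO1 was again among its 3 closest, PPP1R15B, and 0 of 3 for each other member. SRXN1 had no close match (0.58 at best, to ZNF358). Among the members, PRDX1 and PRDX6 were the closest pair, at 0.08 over 12 libraries and 0.04 over 10.

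Overlapping entries limit some of these values, since the strand setting of the counting is not given. TXNRD1 overlaps the pseudogene RPL18AP3 (197 to 1057 counts), an antisense entry RP11-818F20.5 (89 to 185 counts) and EID3 (2 to 18 counts), against 16683 to 29459 counts of its own. The antisense entry within NQO1 had 0 counts in all 12 libraries, and the 7 pseudogenes named after TXN reached at most 8 counts in a library. PRDX1 shares 32 bases of its span with MMACHC in the deposited coordinates, a gene with 47 to 227 counts. In GENCODE v29, on GRCh38, 379 of the 1522 exon bases of PRDX1 (24.9%) also belong to exons of MMACHC, and 575 of the 3254 exon bases of NQO1 (17.7%) to exons of its antisense entry, ENSG00000261602.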

How the data were processed

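Total RNA of MDA-MB-231 cells was extracted with silica columns and sequenced as Illumina libraries, per the labels' protocols. The authors deposited 1 table of whole-number read counts per gene with FPKM values, log2 fold changes and p-values for 6 pairs of groups. Per the submitters' processing notes, reads were aligned with HISAT2 (no version) to GRCh37/hg19. Tool, annotation and strand of the counting are not given in the sources used here. Its 12 count columns were matched to samples by title, and 0 per-sample columns had no sample.

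From the deposited counts, edgeR 4.0.16 (R 4.3.3) fitted 4 group means over 12 libraries, after filterByExpr and TMM scaling. Its two-sided robust quasi-likelihood test called a gene at a Benjamini-Hochberg adjusted p below 0.05. The SFN average is the mean of SFN minus vehicle and SFN+ZA minus ZA on the log2 scale. An SE is the estimate over the root of its F statistic. DESeq2 1.42.0 was an alternative. The GC offset is a lowess curve (span 0.3) of each gene's deviation in log2 CPM (prior count 1) on the median GC of its GENCODE v29 transcripts, joined by Ensembl ID, and genes without a GC value were left out. The edgeR fit of 12 libraries was checked on simulated counts, for SFN against vehicle alone. Those counts had the same spread for every gene, no GC trend and no libraries standing apart. The changes put in were larger than that of NQO1, so the check cannot speak for the zero calls in these data. The fit with the GC offset and libraries left out was not simulated, so that check cannot speak for its calls.

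Members and gene lists were chosen with earlier results of these data known, including the 2 libraries that stood apart. Named from each list are the 2 highest and 2 lowest for the SFN average and every called gene, and, as genes alike, the 3 closest protein-coding genes averaging at least 10 CPM. A gene that this rule names is not reported here. Floors cover counting error only, whereas SDs and SEs also hold the spread between libraries. Same-numbered libraries of different groups deviated together in 9 of 18 pairs (correlation over 0.1, range -0.50 to 0.63). All 3 pairs of SFN and vehicle libraries did (0.26 to 0.63), which comes from the data and not from the labels. Deviations were taken from group means that SFN 2 and vehicle 2 both pull. These correlations therefore cannot tell a pairing from those 2 libraries standing apart. A fit of those 2 groups with the number as a block was added after seeing the data. No other combination of groups had all 3 same-numbered pairs over 0.1.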

Additional observations from a re-analysis of the deposited data

How the results depend on the processing

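Values are log2 differences. NQO1 kept its sign for the SFN average, for SFN against vehicle and for SFN+ZA against ZA under every alternative run. With one library left out it was 0.19 to 0.28 for the average, and 0.21 to 0.25 under the other settings, among them 0.23 with the replicate block. The 1 member called was NQO1, with the GC offset in 10 libraries; with 1 more library left out, members called for the average ran from 0 to 1.

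Results near 0 changed sign. NQO1 in SFN+ZA against vehicle was -0.014 with no filter on low counts and -0.0012 with the compared groups alone. TXNRD1 in SFN+ZA against vehicle was 0.039 in 10 libraries, 0.032 with the GC offset, 0.034 with the offset and the replicate block, and 0.090 with the offset in 10, and in ZA against vehicle 0.0046 with the offset in 10. In the interaction, TXNRD1 was 0.0228 with the offset, 0.023 with offset and block, and 0.023 with the offset in 10. In 10 libraries the interaction was -0.024 for NQO1, -0.019 for PRDX1 and -0.048 for PRDX6, and with the offset in 10 PRDX1 was -0.0062. SRXN1 in SFN+ZA against ZA was -0.46 with the replicate block and -0.39 with block and offset. The cause was not tested.

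With one library left out, SFN against vehicle ran from -0.026 to 0.30 for TXNRD1, -0.094 to 1.09 for TXN, -1.85 to 1.26 for SRXN1 and -0.26 to 0.075 for PRDX6. ZA against vehicle ran from -0.64 to 0.0015 for TXN. SFN+ZA against vehicle ran from -0.077 to 0.11 for NQO1 and -0.15 to 0.055 for TXNRD1. SFN+ZA against ZA ran from -0.18 to 0.061 for TXN and -0.71 to 0.40 for SRXN1. The SFN average ran from -0.098 to 0.50 for TXN and -0.91 to 0.64 for SRXN1, the last -0.79 to 0.45 with the offset in 10. The interaction ran from -0.082 to 0.085 for NQO1, -0.24 to 0.085 for TXNRD1, -1.24 to 1.87 for SRXN1, -0.038 to 0.093 for PRDX1 and -0.16 to 0.17 for PRDX6.

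With the offset in 10 libraries, genes called over the whole table numbered 2 for SFN against vehicle, 21 for ZA against vehicle, 479 for SFN+ZA against vehicle, 9 for SFN+ZA against ZA and 127 for the average, against 0 in each in the 12-library edgeR fit. For SFN+ZA against vehicle they numbered 52 in 10 libraries without the offset, 19 without SFN 2, 6 with DESeq2 and 1 with the offset in 12 libraries, and for the average 5 in 10 libraries without the offset. Other settings kept direction and side of the threshold in 330 of 347 values, and leaving out one library in 404 of 432. The replicate block changed no member's call, and over all genes the 1 call with the offset in 12 libraries became 0 with offset and block. With SFN and vehicle alone and the replicate block, chosen after seeing the data, NQO1 in SFN against vehicle was at 0.22, and at 0.18 with the offset, and no member was called in either. With 3 libraries a group, differences near the standard errors given were not detectable.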
